A study of Mus musculus with 12 samples.

Results

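The 56 genes described here code for the ADAM proteases, the ADAMTS proteases and the ADAMTS-like proteins of the mouse. They were taken by name from the 22793 genes of the expression table, as the protein-coding genes whose symbol is Adam, Adamts or Adamtsl followed by a digit. This rule uses no measured value, but earlier results of these data were known when it was set. The 56 are 32 ADAM genes, 19 ADAMTS genes and 5 ADAMTS-like genes. Their RNA was measured by sequencing in pancreatic islets of RIP-rtTA; TetO-VEGF-A mice, a line in which the insulin promoter (RIP) drives a doxycycline-dependent activator in beta cells and the activator turns on a VEGF-A transgene. The 12 libraries formed 4 groups of 3. No Dox islets were whole islets of this genotype without doxycycline, and Dox islets were whole islets after 1 week of doxycycline. Macrophages were CD11b+ cells and endothelial cells were CD31+ cells, both sorted from islets of the same genotype after 1 week of doxycycline. Every group therefore carries both transgenes, and sorted cells from mice without doxycycline were not analysed here. The sources used here give neither the ages of the mice nor the number of animals behind a library. Separate animals for the 3 libraries of a group are not stated, and p-values then measure only the spread between these samples, which may be technical.

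ADAM proteins are anchored in the cell membrane and carry a metalloprotease domain next to a disintegrin domain. Those with an active site cut the outer parts of other membrane proteins free, as ADAM10 and ADAM17 do with Notch receptors, TNF, cadherins and ligands of the EGF receptor. ADAMTS proteins are secreted, bind the matrix through thrombospondin repeats and cut matrix proteins such as versican, aggrecan and procollagens, while ADAMTS-like proteins have the ancillary domains without the protease. In growing vessels both kinds act where cells meet matrix: ADAM10 and ADAM17 on Notch receptors and on VE-cadherin, and ADAMTS1 on versican, with binding of VEGF as a further known property. Many other ADAM genes of the mouse are known from testis and epididymis.

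Values are the authors' normalized expression signal, linear with a floor of 1, and each ± is the SD of 3 libraries. Library totals ran from 17635776 to 25226447, and the sources used here give no read numbers, so that no counting interval could be attached. The sorted fractions matched their labels: Itgam, which codes for CD11b, had signals of 11409, 11397 and 11460 in macrophages against 2.05, 7.53 and 12.4 in endothelial cells. Pecam1, which codes for CD31, had 57096, 64909 and 62196 in endothelial cells against 772, 738 and 739.6 in macrophages. Vegfa had 3967 ± 637 in No Dox islets and 2027 ± 422 in Dox islets, a log2 difference of -0.98 that did not pass the test (limma, adjusted p = 0.0696). The transgene's RNA would be read in this gene only if its sequence was counted there, and the sources used here do not say whether it was, so that Vegfa does not check the doxycycline labels. No Dox replicate 2 and Dox replicate 1 stood apart from their groups: the deviation of their genes from the group mean rose with the genes' GC content (Spearman's rho 0.67 and 0.61 over 10044 genes), against -0.31 to -0.49 in the other 4 islet libraries.

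The feature that divides these genes by function is the zinc-binding motif of the active site, a run of 11 codons in which histidines hold the zinc ion and a glutamate does the catalysis. It was searched in the coding sequences of GENCODE release M1 (build mm9), allowing glycine or asparagine at the eighth codon, and was found in 36 of the 55 genes searched (65.5%), Adamts19 being not shown here. By comparison, 74 of 22737 protein-coding genes (0.325%) held it, those 36 among them. All 9 ADAMs of somatic tissues with a known protease activity held it (Adam8, Adam9, Adam10, Adam12, Adam15, Adam17, Adam19, Adam28 and Adam33). It was found in 0 of 3 neural-type ADAMs (Adam11, Adam22 and Adam23) and in 0 of 5 ADAMTS-like genes. Among the 20 ADAMs known from the reproductive tract, 10 held it. In the ADAMTS genes asparagine stood at the eighth codon in 5 of the 7 that cut proteoglycans (Adamts1, Adamts4, Adamts9, Adamts15 and Adamts20), Adamts5 had glycine there, and Adamts8 gave no match. A missing match says only that these codons are not in the annotated transcripts.

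The sequences below are those of the members on which the comparisons turn, given 5′ to 3′ on the coding strand of mm9. Capitals mark the codons of the histidines, of the glutamate and of the glycine or asparagine. For genes in which an intron splits the motif, the coordinates span the intron. The first set holds the proteoglycan-cutting ADAMTS members, shown for their difference at the eighth codon:
Adamts1 (chr16:85799436-85799790, minus strand): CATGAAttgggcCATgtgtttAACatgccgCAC
Adamts9 (chr6:92855279-92858487, minus strand): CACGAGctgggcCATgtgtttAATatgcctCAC
Adamts4 (chr1:173183341-173184046, plus strand): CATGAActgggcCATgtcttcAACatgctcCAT
Adamts5 (chr16:85878260-85888071, minus strand): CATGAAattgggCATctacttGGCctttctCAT
The second set holds the other ADAMTS genes that rose in islets with doxycycline, which all have glycine codons at that place:
Adamts2 (chr11:50588905-50589636, plus strand): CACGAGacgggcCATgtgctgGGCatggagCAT
Adamts7 (chr9:90074294-90075478, plus strand): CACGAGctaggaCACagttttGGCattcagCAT
Adamts12 (chr15:11171284-11185319, plus strand): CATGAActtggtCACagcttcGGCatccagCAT
The third set holds ADAMs, first Adam12 and Adam19, which rose in islets, then the others with the motif that were higher in macrophages than in endothelial cells, as Adam19 also was:
Adam12 (chr7:141152841-141152873, minus strand): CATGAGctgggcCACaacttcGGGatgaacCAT
Adam19 (chr11:45938552-45938584, plus strand): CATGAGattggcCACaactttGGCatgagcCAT
Adam17 (chr12:21342593-21342625, minus strand): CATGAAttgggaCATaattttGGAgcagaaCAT
Adam9 (chr8:26100798-26100830, minus strand): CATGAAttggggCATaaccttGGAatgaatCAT
Adam8 (chr7:147173792-147173824, minus strand): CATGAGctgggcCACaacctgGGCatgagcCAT
Adam33 (chr2:130880866-130880898, minus strand): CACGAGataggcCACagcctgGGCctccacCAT
Adam30 (chr3:97965784-97965816, plus strand): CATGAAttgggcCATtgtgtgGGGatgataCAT
Within the motif, Adamts1 differed from Adamts9 at 5 of 33 bases and from Adamts4 at 6, while Adamts4 differed from Adamts5 at 14. Adam8 differed from Adam12 and from Adam19 at 4 bases each, and Adam12 and Adam19 from each other at 5. The motif alone does not sort the subfamilies, since Adam8 and Adam12 each differed from Adamts17 at only 3 bases.

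A gene was tested where its signal reached a filter level of 182.37 in at least 3 of the 6 libraries compared. Of the 56 genes, 28 reached that level in at least 1 library, 9 were at the floor of 1 in all 12, and 13 never exceeded 10. The genes that never exceeded 10 were nearly all of one family: they held 12 of the 20 reproductive ADAMs, and 8 of those 12 stayed at the floor throughout. Adamts19 was the remaining gene at the floor. Among the 28 genes above the filter level, 10 had their highest group mean in endothelial cells, 8 in macrophages, 5 in Dox islets and 5 in No Dox islets. All 3 libraries of the highest group lay above every other library for 7 of the 10, 7 of the 8, 2 of the 5 and 4 of the 5, respectively. The same counts were not made over all genes, so that they describe these members and do not set the family apart from other genes. The 5 somatic catalytic ADAMs highest in macrophages were Adam8, Adam9, Adam17, Adam19 and Adam33, and the 3 highest in endothelial cells were Adam10, Adam12 and Adam15. None of the 12 ADAMTS genes above the filter level was highest in macrophages.

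**Figure D1:**
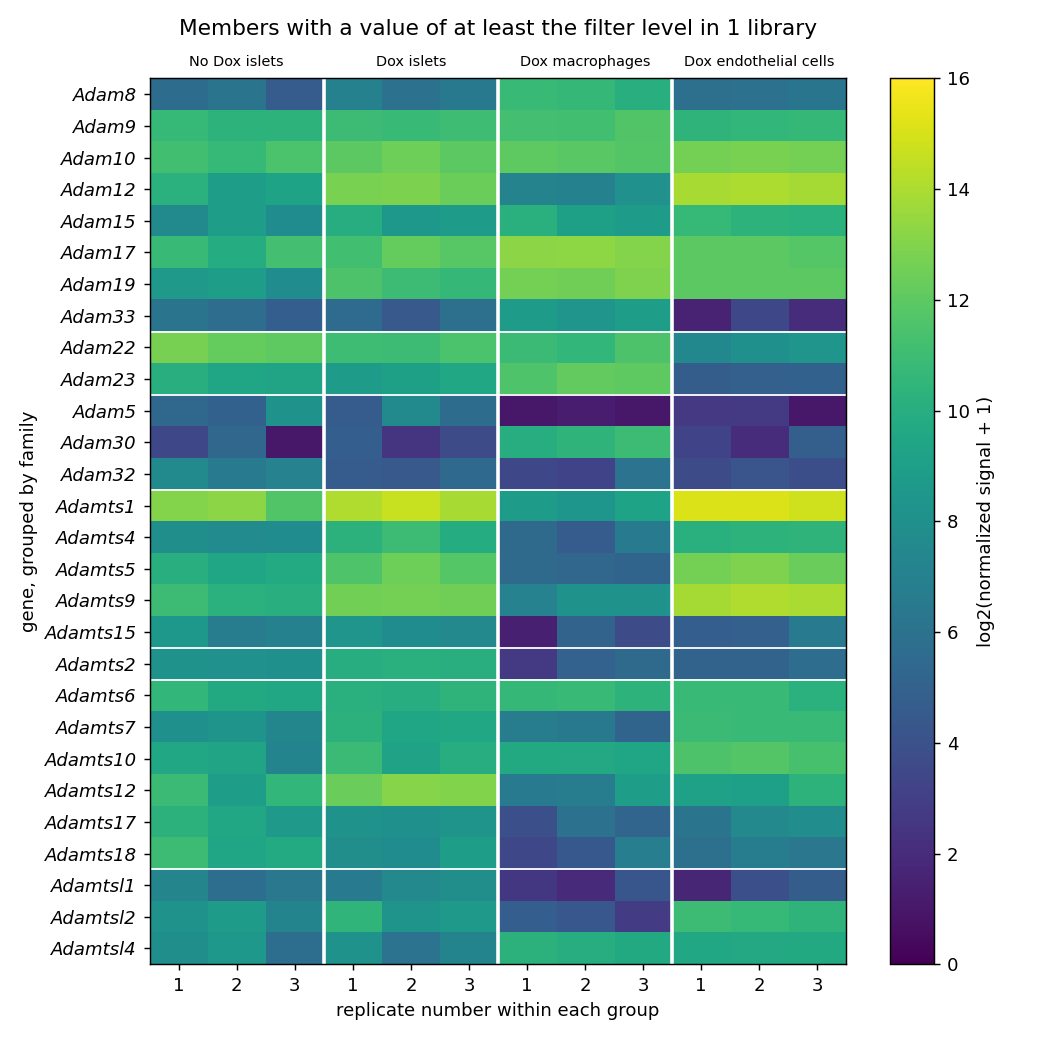
Heat map of log2(normalized signal + 1) for the 28 members that reached 182.37 in at least 1 library, with genes as rows grouped by family and the 12 libraries as columns grouped by sample type. Of the 5 ADAMTS proteoglycanases, Adamts1, Adamts4, Adamts5 and Adamts9 are darker in macrophages than in endothelial cells and Adamts15 is low in both, while Adam8, Adam23, Adam30 and Adam33 show the opposite order.

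Levels of different genes are set beside each other only per length, as the group mean divided by the kilobases of exon, because deposited values rose with exon length across genes (Spearman's rho 0.3 to 0.41 over the libraries). On that scale Adamts1 led 3 of the groups, with 1343 per kb in No Dox islets, 3684 in Dox islets and 6468 in endothelial cells. The next levels in endothelial cells were those of Adam12 (1888 per kb), Adam10 (1344) and Adamts9 (1274). In macrophages the order was headed by membrane proteases: Adam17 with 1300 per kb, then Adam19 (892), Adam10 (783), Adam9 (656) and Adam30 (615). Adamts12 was second in Dox islets, with 1174 per kb, and in No Dox islets Adam22, with 426, came after Adamts1 and Adam10 (461). These levels describe the libraries and were not tested between genes.

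The first comparison sets whole islets after 1 week of doxycycline against whole islets without it. Since every library carries both transgenes, doxycycline itself and the VEGF-A transgene cannot be told apart. Of the 22 members above the filter, 8 were higher with doxycycline and 2 were lower at an adjusted p under 0.05 (limma, Benjamini-Hochberg over all genes tested), that is 10 of 22, where 8.46% of the 10232 genes tested passed (6.21% higher and 2.26% lower). The risers were the proteoglycan-cutting Adamts4, Adamts5 and Adamts9, the procollagen peptidase Adamts2, the related pair Adamts7 and Adamts12, and the membrane proteases Adam12 and Adam19. The median log2 difference of the 22 members was 1.06, against 0.11 over all genes tested. Groups did not overlap for 11 members in the upward and 3 in the downward direction, where 27.9% of all genes tested had groups that did not overlap (17.2% higher and 10.6% lower). In bulk islets, more cells of a type and more RNA per cell cannot be told apart.

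Adamts4, an aggrecanase that cuts aggrecan and versican, had signals of 245, 206 and 217 in No Dox islets and 1251, 1988 and 955 in Dox islets. The lowest Dox library was above the highest No Dox library, and the log2 difference was 2.58 (SE 0.36, adjusted p = 0.0112). Adamts5, the other main aggrecanase, went from 1085, 717 and 889 to 3069, 5658 and 3519. Its groups did not overlap either, with Dox replicate 2 the highest, and the log2 difference was 2.15 (adjusted p = 0.0112). Adamts9, a versican-cutting protease, had 2002, 1194 and 1024 without doxycycline and 6127, 6524 and 5939 with it. The Dox libraries were close together here, and the change was 2.20 on the log2 scale (adjusted p = 0.0112). Adamts1, the member with the highest level per length, was measured at 8532, 9544 and 3288 in No Dox islets and at 17705, 25686 and 15208 in Dox islets. These groups did not overlap, and No Dox replicate 3 was far below the other 2 controls. With this spread the log2 difference of 1.56 did not pass the test (SE 0.44, adjusted p = 0.0623). Adamts15, the remaining tested member of the subfamily, had 203 ± 146 in No Dox islets and 245 ± 71.3 in Dox islets, with overlapping groups (log2 difference 0.46, adjusted p = 0.708). In all, 3 of the 5 tested proteoglycanases rose.

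Adamts2, which removes the N-terminal propeptide of fibrillar procollagens, had 301, 268 and 265 in No Dox islets and 994, 1136 and 1041 in Dox islets. The libraries of each group lay close together, and the log2 difference was 1.92 (SE 0.30, adjusted p = 0.0112). Its relatives Adamts3 and Adamts14 stayed below the filter. Adamts12, which like Adamts7 can cut cartilage oligomeric matrix protein, had 1954, 496 and 1552 in No Dox islets and 5277, 8827 and 7916 in Dox islets. The control group was uneven, with replicate 2 the lowest, yet every Dox library was above it (log2 difference 2.64, adjusted p = 0.0171). Adamts7 had 265, 312 and 164 in No Dox islets and 1265, 699 and 758 in Dox islets, again without overlap, and rose by 1.87 on the log2 scale (adjusted p = 0.0256). Adamts7 overlaps Tbc1d2b on the opposite strand, and Tbc1d2b itself went from a mean of 992 to 2580. The sources used here do not say whether counting used the strand, so that reads of the pair cannot be separated. In the sorted cells Tbc1d2b had means of 2782 in macrophages and 4567 in endothelial cells, and Adamts7 had 75.3 and 1849. The part of Tbc1d2b reads in the Adamts7 values was not tested. Adamts9 likewise overlaps A730049H05Rik and Gm15737 on the opposite strand, whose means were at most 110 and 77.9 in islets.

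Adam12, a membrane protease that sheds HB-EGF and cuts IGF-binding proteins, had signals of 1184, 491 and 611 in No Dox islets and 7116, 7397 and 5316 in Dox islets. The Dox libraries were far above the controls, and the log2 difference of 3.21 (SE 0.37, adjusted p = 0.0092) was the largest among the tested members, a 9.22-fold change. Folds here and below are those of value + 1 and understate the change of low genes. Adam19, which sheds neuregulin, had 387, 502 and 217 in No Dox islets and 3021, 2025 and 1625 in Dox islets. No libraries overlapped, and the log2 difference was 2.62 (adjusted p = 0.0112). The general sheddases Adam10 and Adam17 had higher means with doxycycline, without passing the test. Adam10, which cuts Notch receptors and cadherins, had 2317, 1720 and 2774 in No Dox islets and 3999, 5660 and 4082 in Dox islets, groups that did not overlap (log2 difference 1.02, adjusted p = 0.0683). Adam17, the TNF-converting enzyme, had 1807, 973 and 2344 in No Dox islets and 2255, 4747 and 3692 in Dox islets. Here Dox replicate 1 was below No Dox replicate 3, and the adjusted p was 0.137 at a log2 difference of 1.09. Adam15 (300.0 ± 162 in No Dox islets and 606 ± 327 in Dox islets, log2 difference 1.01, adjusted p = 0.265) and Adam9 (1437 ± 239 in No Dox islets and 1960 ± 131 in Dox islets, log2 difference 0.46, adjusted p = 0.364) did not pass either.

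The 2 members that fell with doxycycline were Adam22 and Adamts18. Adam22 (chr5:8072352-8368160), an ADAM without the zinc motif that serves neurons as a receptor of the secreted protein LGI1, had signals of 6675, 4729 and 4235 in No Dox islets and 2070, 2023 and 2835 in Dox islets. The groups did not overlap, and Adam22 fell by 2.24-fold (log2 difference -1.16, SE 0.30, adjusted p = 0.045). Its relative Adam23 had 809.7 ± 252 in No Dox islets and 576 ± 143 in Dox islets, with overlap (log2 difference -0.48, adjusted p = 0.488). Adamts18 (chr8:116221026-116372641), a gene known from eye development, had 2008, 712 and 888 in No Dox islets and 237, 219 and 502 in Dox islets. All Dox libraries were below all controls, although the control values ranged widely, and the log2 difference was -1.87 (adjusted p = 0.0468). Adamts17, related to the fibrillin-binding Adamts10, had 1257, 772 and 410.2 in No Dox islets and 289, 265 and 309 in Dox islets, groups without overlap whose log2 difference of -1.36 did not pass (adjusted p = 0.0886). The members left were Adamts6 (log2 difference 0.19, adjusted p = 0.819), Adamts10 (1.36, 0.247), Adamtsl2 (1.03, 0.378) and Adamtsl4 (-0.24, 0.908), and none of them passed. Both calls of a fall were close to the threshold: the call of Adam22 was lost in 10 of 15 alternatives and that of Adamts18 in 9.

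**Figure D2:**
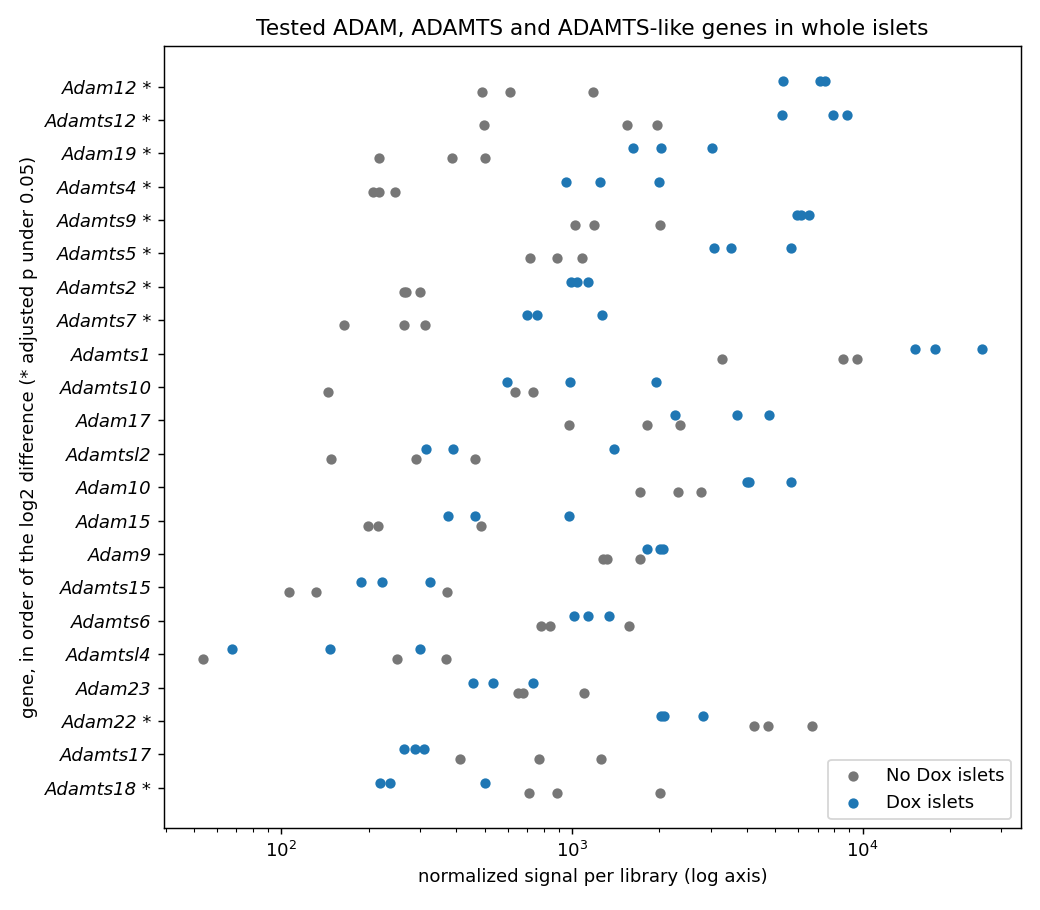
Normalized signal per library (log axis) of the 22 tested members in No Dox islets and Dox islets, 1 point per library, with genes in order of their log2 difference and an asterisk at an adjusted p under 0.05. The points of the groups are apart for 11 members toward higher and 3 toward lower signal in Dox islets, and 10 members carry an asterisk.

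These islet calls lean on single libraries. Without Dox replicate 2 no member passed, and only 5 of 10232 genes did, while at full size 866 genes passed. The 5 members that passed without Dox replicate 3 were Adam12, Adam19, Adamts4, Adamts5 and Adamts9, and when all genes were tested without a filter only Adamts2 passed. Other settings called more members: 14 (11 higher and 3 lower) after removal of the GC trend, 12 (9 and 3) after quantile normalization and 12 (11 and 1) in 1 model of all 12 libraries. They also called more of all genes: 1595 of 10232 after GC removal and 1040 of 10232 with quantile normalization. The model of all 12 libraries called 1598 of 11608 genes and tested 25 members. Removing the GC trend kept all 10 and added Adamts1 (1.45), Adam10 (0.90), Adam17 (0.97) and Adamts17 (-1.51), which did not pass above. The 8 risers kept their direction under each of the 15 alternatives tried, and so did the 2 that fell. For most alternatives this was fixed in advance and adds no support. The groups of these members did not overlap, so that leaving out libraries could not reverse a sign. A change of filter, the replicate block and the model of all 12 libraries leave the difference itself unchanged.

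Markers of other cell types moved with the same libraries. The summed share of 8 endothelial markers was 0.149 to 0.183% of the library signal in No Dox islets and 0.353 to 0.466% in Dox islets, with 6 of 7 tested markers higher. The share of 8 pericyte and smooth muscle markers was 0.274 to 0.57% and then 1.03 to 1.67% (5 of 8 higher), that of 7 fibroblast markers 0.0945 to 0.189% and then 0.275 to 0.513% (3 of 7 higher), and that of 9 macrophage markers 0.014 to 0.0362% and then 0.047 to 0.0929% (5 of 7 higher). Of the fibroblast markers 4 did not pass, and log2 differences ran from -0.18 to 2.70. The share of 5 markers of dividing cells was 0.00348 to 0.0196% and then 0.0445 to 0.108% (4 of 5 higher). That of acinar markers was 0.16 to 0.603% and then 0.392 to 1.26% (0 of 7 called). Beta cell markers went the other way, from 1.78 to 2.95% down to 0.819 to 0.883%, with 4 of 8 lower. Other endocrine markers went from 1.14 to 2.07% down to 0.67 to 0.795% (0 of 4 called). The part of these shifts in the member results was not tested.

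The known partners and substrates of the family were read from lists chosen by role. Among 12 tested inhibitors and maturation partners of 17 listed, 1 was higher with doxycycline and 0 were lower, a share near the 8.46% of all genes tested that passed. The gene called was Timp2, a metalloprotease inhibitor (1974 ± 222 to 4645 ± 377, log2 difference 1.24, adjusted p = 0.0248), and its call was lost in 4 of 15 alternatives. Timp3, which inhibits ADAM17 and the aggrecanases, had 19484 ± 8177 in No Dox islets and 40504 ± 6909 in Dox islets (log2 difference 1.15, adjusted p = 0.129), and Reck, an inhibitor of ADAM10, had 823 ± 73.8 in No Dox islets and 997 ± 174 in Dox islets (adjusted p = 0.677). Of 20 tested membrane proteins that ADAM10 or ADAM17 shed, out of 26 listed, 7 were higher and 2 lower. The largest rises were those of the adhesion molecule Vcam1 (log2 difference 2.13), VE-cadherin Cdh5 (1.85), Notch4 (1.80) and the Notch ligand Dll1 (1.58), and E-cadherin Cdh1 (-1.20) and the interleukin-6 receptor Il6ra (-1.08) fell. The call of Dll1 was lost in 10 of 15 alternatives, among them the replicate block, quantile normalization and GC removal, and that of Vcam1 in 5. In 9 of the 15 no gene of the lists was called lower. Notch1 had uneven libraries and did not pass (log2 difference 0.96, adjusted p = 0.466), and Tnf and Rhbdf2, whose protein helps ADAM17 mature, were below the filter.

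Among 11 tested matrix and plasma substrates of ADAMTS proteases, out of 17 listed, 7 were higher with doxycycline and 0 were lower. Of all genes tested, 6.21% were higher and 2.26% lower. Fibronectin, Fn1, went from 532 ± 161 to 6499 ± 1605 (log2 difference 3.62, adjusted p = 0.0071). Fibrillin-2 (Fbn2, 2.53, adjusted p = 0.0423) and the type I collagen genes Col1a2 (2.21) and Col1a1 (2.19) followed. The call of Fbn2 was lost in 7 of 15 alternatives, that of Col1a2 in 3 and that of Col1a1 in 2. Versican, Vcan, the shared substrate of the proteoglycanases, had 643 ± 219 in No Dox islets and 1534 ± 618 in Dox islets, groups that did not overlap but did not pass (log2 difference 1.24, adjusted p = 0.0949). Von Willebrand factor, Vwf, the substrate of ADAMTS13, did not pass either (0.38, adjusted p = 0.705), and Adamts13 itself stayed at or below 5.34 in all islet libraries. Col1a1, Col1a2, Col3a1 and Dcn stand in both this list and the fibroblast markers, and Cdh5, Csf1r and Mertk are endothelial or macrophage markers as well as substrates. All 3 lists were compiled by role with earlier results of these data known.

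The second comparison sets the sorted macrophages against the sorted endothelial cells, both after 1 week of doxycycline. Most tested members differed between them: of 21 tested members, 8 were higher in macrophages and 11 lower, where 65.3% of the 10164 genes tested passed (29.4% higher and 36% lower). Groups did not overlap for the same 19 members, against 71.4% of all genes tested (31.6% higher and 39.8% lower). Adam8, Adam23, Adam30 and Adam33 reached the filter level only in macrophages. Adamts4, Adamts5, Adamts7 and Adamtsl2 reached it only in endothelial cells. For these members the filter itself favoured a difference, as it did for any gene that entered through 1 group alone. All 4 tested proteoglycanases were lower in macrophages, as were 3 of 4 other ADAMTS genes, and 5 of 8 somatic catalytic ADAMs were higher. The median log2 difference was -0.78, against -0.14 over all genes.

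Most tested ADAMTS genes were higher in endothelial cells. Adamts1 had signals of 36207, 36672 and 29997 in endothelial cells and 434, 334 and 609 in macrophages, a 76.6-fold gap between groups far apart (log2 difference -6.26, SE 0.21, adjusted p = 1.05e-07). Adamts9 had 14675, 17366 and 15819 in endothelial cells and 137, 301 and 287 in macrophages. Adamts5 showed the widest gap of the subfamily, with 6463, 7643 and 5233 in endothelial cells against 45.8, 38.5 and 34.2 in macrophages. The log2 differences of Adamts9 and Adamts5 were -6.12 and -7.31 (adjusted p = 4.75e-07 and 5.93e-08). Adamts4 had 1135, 1276 and 1338 in endothelial cells and 45.1, 24.8 and 96.1 in macrophages (log2 difference -4.68, adjusted p = 3.35e-05). Adamts7 (1849 ± 85.8 in endothelial cells and 75.3 ± 36.4 in macrophages, log2 difference -4.74), Adamts10 (2970 ± 361 in endothelial cells and 775 ± 83 in macrophages, -1.94) and the fibrillin-binding, protease-free Adamtsl2 (1669 ± 318 in endothelial cells and 17.4 ± 10.6 in macrophages, -6.70) followed the same order. So did Adam12, with 15144, 17054 and 14658 in endothelial cells against 142, 129 and 272 in macrophages, a 90.6-fold gap (log2 difference -6.50, adjusted p = 2.59e-07). Adam10 differed less, with 6625 ± 417 in endothelial cells and 3860 ± 437 in macrophages (log2 difference -0.78, adjusted p = 0.00033), and Adam15 had 1381 ± 253 in endothelial cells and 717 ± 372 in macrophages (-1.05, adjusted p = 0.0224).

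Adamts12 passed with a smaller margin, at 566, 529 and 1299 in endothelial cells and 100.4, 109 and 498 in macrophages (log2 difference -2.04, adjusted p = 0.0222). Replicate 3 was the highest library of both fractions. The pericyte gene Rgs5 was also highest in replicate 3 of each, with 15000, 15427 and 57986 in endothelial cells and 3051, 3498 and 12399 in macrophages. Pericyte and smooth muscle markers together took 0.072 to 0.28% of the endothelial and 0.0172 to 0.0632% of the macrophage signal, and their part in the Adamts12 values was not tested.

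The 8 members higher in macrophages were all membrane ADAMs. Adam8, a protease known from leukocytes, had signals of 1789, 1646 and 1026 in macrophages and 57.8, 63.8 and 72.8 in endothelial cells, a 22.1-fold gap (log2 difference 4.46, adjusted p = 1.95e-06). Adam23 (chr1:63492465-63643089), which lacks the zinc motif and is best known from neurons, had 3025, 4468 and 4106 in macrophages against 25.1, 28.6 and 30.2 in endothelial cells. The macrophage libraries were far above the endothelial ones (log2 difference 7.05, adjusted p = 9.14e-08). Its relative Adam22 had 1884, 1573 and 2911 in macrophages and 175, 265 and 319 in endothelial cells (log2 difference 3.06, adjusted p = 3.47e-05). Adam33 had 465, 322 and 498 in macrophages and 2.05, 10.2 and 3.13 in endothelial cells (log2 difference 6.34, adjusted p = 1.49e-05), so that its endothelial libraries were near the floor. Adam17 was present in both fractions, at 9703, 9776 and 8430 in macrophages and 4060, 4091 and 3460 in endothelial cells. Its groups did not overlap, and the 2.4-fold difference passed (log2 difference 1.27, adjusted p = 1.59e-05). Adam9 (2632 ± 504 in macrophages and 1489 ± 121 in endothelial cells, log2 difference 0.81, adjusted p = 0.00176) was also higher in macrophages. So was Adam19 (6692 ± 852 in macrophages and 4031 ± 27.5 in endothelial cells, log2 difference 0.72, adjusted p = 0.000469). Adamts6 (1555 ± 226 in macrophages and 1573 ± 314 in endothelial cells, log2 difference -0.01) and Adamtsl4 (1034 ± 197 in macrophages and 812 ± 44.8 in endothelial cells, 0.33) did not pass, with adjusted p of 0.978 and 0.114.

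Adam30, a gene grouped with the reproductive ADAMs, had the second largest absolute difference of all tested members. Its signals were 997, 1363 and 1998 in macrophages against 8.2, 3.01 and 27.9 in endothelial cells, and all 6 islet libraries were at or below 38.2 (log2 difference 7.09, SE 0.68, adjusted p = 3.26e-05). It was the only reproductive ADAM of 20 above the filter between the fractions. Adam30 (chr3:97964735-97967096) lies 10445 bases from Notch2 on the same strand. Notch2 had 11782 ± 1657 in macrophages and 350.3 ± 92.1 in endothelial cells, and whether reads from beyond the end of Notch2 enter the Adam30 value was not tested.

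**Figure D3:**
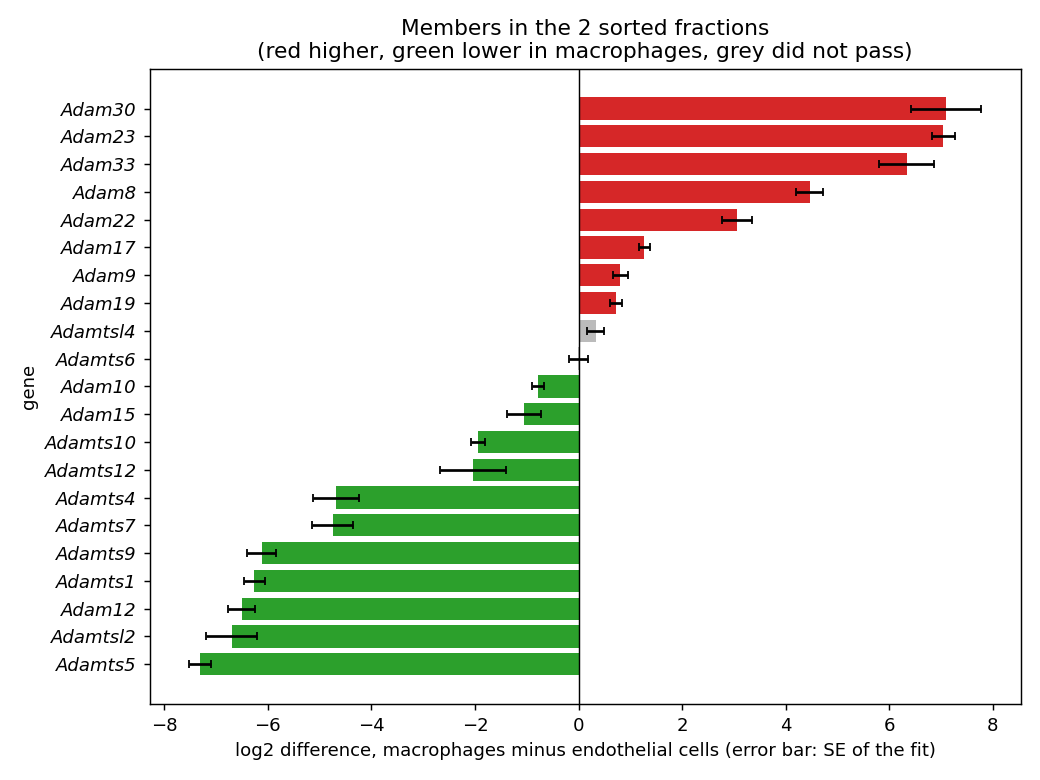
Log2 difference of the 21 tested members between macrophages and endothelial cells, with bars for the fitted difference, error bars for its SE, and grey for members that did not pass. Bars reach 7.09 for Adam30 and 7.05 for Adam23 on the macrophage side and -7.31 for Adamts5 on the endothelial side.

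Of the 19 members called between the fractions, 16 passed under every alternative, and Adam15, Adam19 and Adamts12 did not. Markers of other cell types were detected in both fractions. Beta cell markers took 0.0126 to 0.0302% of the macrophage and 0.0022 to 0.00283% of the endothelial libraries. For other endocrine markers the shares were 0.00891 to 0.0596% and 0.000586 to 0.0038%. All 3 tested markers of each of these lists were higher in macrophages. Acinar markers took 0.00614 to 1.72% of the macrophage and 0.00114 to 0.5% of the endothelial libraries, while the endothelial marker share was 0.00661 to 0.00925% in macrophages and the macrophage marker share 0.0128 to 0.0175% in endothelial cells. Of the latter, 89% came from Mertk (2957 ± 396), and the means of the other 8 markers were 4.68 to 96.8. The junction gene Cldn5, the lowest of the endothelial markers in both fractions, had 2.45, 1 and 6.05 in macrophages and 176 ± 9.46 in endothelial cells. Means of the other endothelial markers ran from 61.7 to 750 in macrophages and from 10029 to 61400 in endothelial cells. The macrophage marker Cd14 had 59.8, 61 and 92.9 in endothelial cells. The part of these shares in the member results was not tested.

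Partners and substrates were divided as well. Of 12 tested inhibitors and partners, 3 were higher in macrophages and 8 lower, where 29.4% of all genes tested were higher and 36% lower. Timp3 had 72101 ± 5991 in endothelial cells and 747 ± 273 in macrophages (log2 difference -6.66, adjusted p = 1.84e-07), and Reck had 437 ± 34.4 in endothelial cells and 37.4 ± 9.73 in macrophages (-3.54). The tetraspanins that escort ADAM10 went both ways: Tspan33 had 792 ± 92.3 in macrophages and 2.02 ± 1.01 in endothelial cells (log2 difference 8.09), and Tspan15 had 116 ± 131 in macrophages and 3620 ± 310.3 in endothelial cells (-5.56). Rhbdf2, the iRhom that brings ADAM17 to the surface in immune cells, was higher in macrophages (log2 difference 0.99, adjusted p = 0.00127), as was Timp2 (2.11). Among 22 tested shed proteins, 11 were higher in macrophages and 9 lower. Tnf, the substrate that gave ADAM17 its name, had 9305 ± 846 in macrophages and 2.72 ± 2.97 in endothelial cells (log2 difference 11.57), and Csf1r (9.44) and Cxcl16 (7.20) were on the same side, while Cdh5 (-7.53) and Notch1 (-2.30) were on the endothelial side. Of 9 tested matrix and plasma substrates, Fn1 (1.94) was higher in macrophages, and Thbs1 (-4.28), Fbn1 (-2.85), Vwf (-2.46) and Vcan (-1.76) were lower.

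The last comparisons set each fraction against the Dox islets from which such cells were sorted. They share the Dox islet libraries with each other and with the first comparison, and the fractions with the second, so that the values are given side by side without a test of their likeness. Against Dox islets, 7 of 25 tested members were higher in macrophages and 12 lower, where 56% of 10707 genes passed (24.7% higher and 31.3% lower), and groups did not overlap for 20 members against 63.7% of all genes (28.1% higher and 35.6% lower). In endothelial cells 8 of 22 were higher and 6 lower, where 31.5% of 10204 genes passed (13.9% higher and 17.5% lower), and groups did not overlap for 17 members against 48.3% of all genes (25.5% higher and 22.8% lower). Median log2 differences were -0.44 for members and -0.12 for all genes in macrophages, and 0.49 and 0.08 in endothelial cells. Adam8, Adam30 and Adam33 reached the filter level in macrophages and in no Dox islet library. Adamts2, Adamts4, Adamts5, Adamts7, Adamts15, Adamts17, Adamts18 and Adamtsl2 reached it in Dox islets and in no macrophage library. Adam23, Adamts2, Adamts15 and Adamts18 reached it in Dox islets and in no endothelial library. In these cases the filter itself favoured a difference.

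A first set of members was higher in endothelial cells than in Dox islets and lower in macrophages. It held Adam12 (log2 difference 1.25 in endothelial cells and -5.25 in macrophages), Adamts1 (0.84 and -5.42), Adamts7 (1.08 and -3.67) and Adamts9 (1.36 and -4.76). The endothelial call of Adamts1 was lost in 7 of 14 alternatives and that of Adamts7 in 3. Adamts4 and Adamts5 were lower in macrophages (-4.78 and -6.61) and did not pass in endothelial cells, where their log2 differences were -0.10 (adjusted p = 0.8) and 0.69 (adjusted p = 0.0777). Adamts10 (1.495, adjusted p = 0.0206) and Adam15 (1.30, adjusted p = 0.0262) were higher in endothelial cells and did not pass in macrophages (-0.44 and 0.25), although Adamts10 was called lower there after GC removal (-1.05). In endothelial cells the call of Adamts10 was lost in 5 of 14 alternatives and that of Adam15 in 7. Adamtsl2 was lower in macrophages (-5.13) and did not pass in endothelial cells (1.57, adjusted p = 0.0512).

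A second set was higher in macrophages than in Dox islets: Adam30 (log2 difference 6.80), Adam8 (3.99), Adam33 (3.40), Adam23 (2.75) and Adam17 (1.45). In endothelial cells Adam23 was lower than in Dox islets (-4.29), and Adam17 did not pass (0.18, adjusted p = 0.632). Adam19 and Adamtsl4 were higher than in Dox islets in both fractions, Adam19 by 1.63 in macrophages and 0.91 in endothelial cells, and Adamtsl4, whose product binds fibrillin, by 2.81 and 2.48. The endothelial call of Adam19 was lost in 6 of 14 alternatives. The signals of Adamtsl4 were 300.1, 67.7 and 148 in Dox islets, 1243, 1008 and 852 in macrophages and 769.8, 808 and 859 in endothelial cells, so that every sorted library lay above every Dox islet library.

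The last set was lower in both fractions than in Dox islets. Adamts2 had signals of 994, 1136 and 1041 in Dox islets, 5.73, 31.5 and 45.3 in macrophages and 32.8, 32.8 and 51.5 in endothelial cells (log2 differences -5.61 and -4.75, adjusted p = 0.000121 and 1.76e-05). Adamts12 had 5277, 8827 and 7916 in Dox islets, against the lower values already given for the fractions (-5.34 and -3.29, adjusted p = 5.14e-05 and 0.000295). Both had risen with doxycycline in whole islets. Adamts15 (-4.50 in macrophages and -2.51 in endothelial cells) and Adamts18 (-3.30 and -1.87) were also lower in both, and Adamts17 was lower in macrophages (-3.13) without passing in endothelial cells (-1.01, adjusted p = 0.115). Adam22 was lower in endothelial cells (-3.21, adjusted p = 7.51e-05), whereas its signals of 1884, 1573 and 2911 in macrophages and 2070, 2023 and 2835 in Dox islets overlapped (-0.15, adjusted p = 0.649). All 7 fibroblast markers and all 8 pericyte and smooth muscle markers were likewise lower in each fraction than in Dox islets, and their part in this set was not tested. Adam9 (0.41 and -0.40), Adam10 (-0.23 and 0.55) and Adamts6 (0.42 and 0.42) passed in neither comparison.

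**Figure D4:**
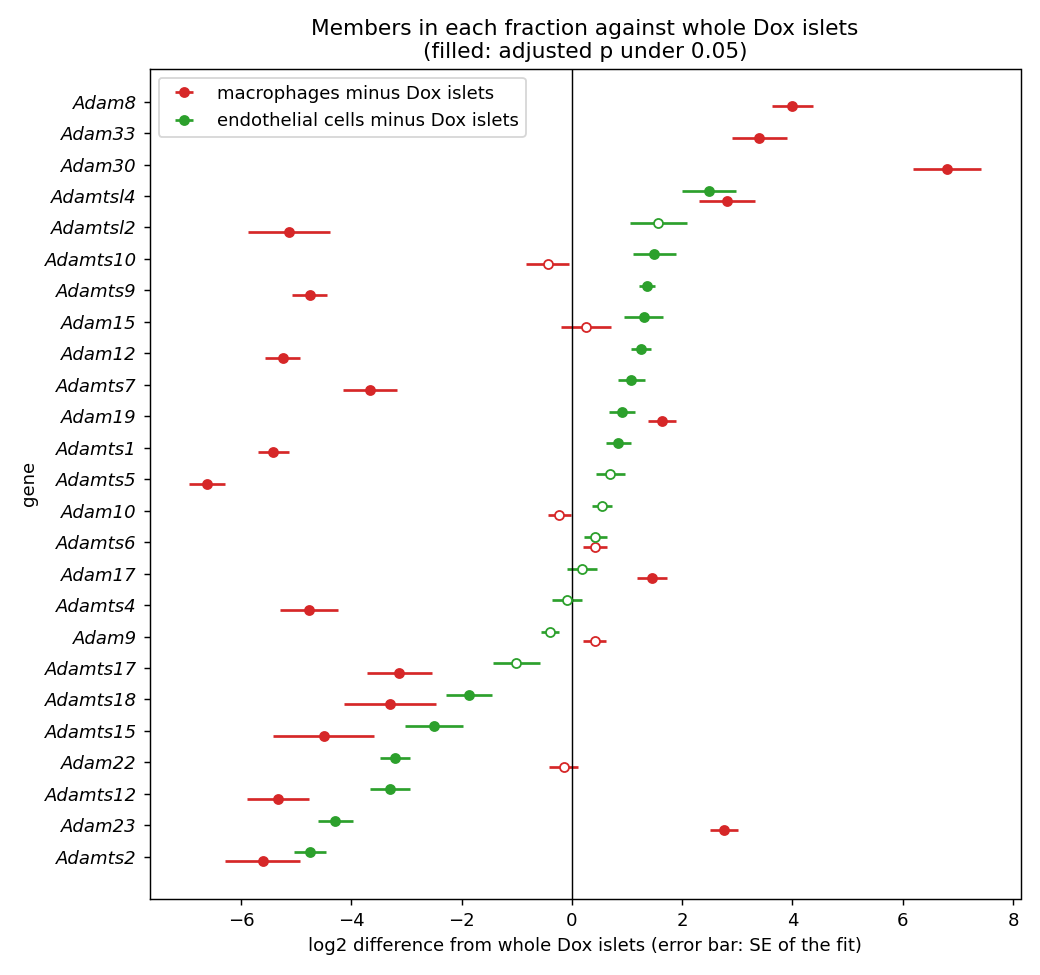
Log2 difference of each tested member from whole Dox islets, with 1 point for macrophages and 1 for endothelial cells, error bars for the SE of the fit and filled points for an adjusted p under 0.05. Adam12, Adamts1, Adamts7 and Adamts9 have filled points on opposite sides of 0, and Adamts2, Adamts12, Adamts15 and Adamts18 have both points filled below 0.

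Of the 19 macrophage calls, 18 passed under every alternative (all but Adamts18), and of the 14 endothelial calls 7 did (Adam12, Adam22, Adam23, Adamts2, Adamts9, Adamts12 and Adamtsl4). The endothelial count fell to 9 without Dox replicate 3 and to 9 without endothelial replicate 1, in both cases with 3 higher and 6 lower. The balance of directions depended on the setting: 9 higher and 4 lower after quantile normalization, 4 and 11 with no filter, 9 and 14 at the lower filter limit of 15.48, and 4 and 6 in 1 model of all 12 libraries. With GC removal it was 11 and 6, and the added members were Adam10, Adamts5 and Adamtsl2. Over all genes, 33.1% of 14218 passed at the lower filter limit. Shares of all genes under the other settings are not given here, so that these counts describe the members only.

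Partners in these comparisons gave 2 higher and 7 lower of 13 tested in macrophages, and 3 higher and 3 lower of 12 in endothelial cells. Of all genes tested, 24.7% were higher and 31.3% lower in macrophages, and 13.9% higher and 17.5% lower in endothelial cells. Timp3 was lower in macrophages (log2 difference -5.82) and higher in endothelial cells (0.84, a call lost in 6 of 14 alternatives), while Reck was lower in both (-4.71 and -1.18). The largest differences among the rest were those of Tspan15 (-4.998) and Pcsk6 (-4.84), a proprotein convertase, in macrophages, and of Pcsk6 (-4.36), Timp2 (-1.98) and Tspan14 (1.43) in endothelial cells. Rhbdf2 was higher in macrophages (2.29) and did not pass in endothelial cells (1.30, adjusted p = 0.0846). Shed proteins were 10 higher and 10 lower of 22 in macrophages, and 6 higher and 8 lower of 21 in endothelial cells. Tnf (8.45), Dll1 (-6.30), Cdh5 (-5.99) and Notch4 (-5.08) differed most in macrophages, and Cdh1 (-6.78), Csf1r (-4.70), Cdh2 (-4.69) and Il6ra (-4.11) in endothelial cells. Notch1 did not pass in macrophages (-0.61, adjusted p = 0.311) except after GC removal (-1.16, called lower), and was higher in endothelial cells (1.68, adjusted p = 0.0297). That endothelial call was lost in 7 of 14 alternatives. All 10 tested matrix and plasma substrates were lower in macrophages, led by Col1a2 (-5.17), Col1a1 (-5.08), Col3a1 (-5.07) and Dcn (-4.98), with Vcan at -1.99 and Vwf below the filter. In endothelial cells 8 of 11 were lower, led by Dcn (-6.61), Col1a1 (-6.10), Col3a1 (-5.45) and Col1a2 (-4.81), while Vwf (1.81) and Thbs1 (0.97) were higher and Vcan did not pass (-0.22, adjusted p = 0.642).

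The members below the filter were read with a lower limit of 15.48, an alternative added after the data were seen. In islets 16 further members could then be tested, where 5.74% of 14443 genes passed. Adamts16, a protease known to cut fibronectin, had 5.2, 1 and 4.49 in No Dox islets and 34.9, 48.6 and 44 in Dox islets, and this difference passed (log2 difference 3.40, adjusted p = 0.0457). Of the islet groups, only Dox islets reached the limit for Adamts16, so that the filter itself favoured a rise. Adamts8, a relative of Adamts1, had 28.4, 21.3 and 32.1 in No Dox islets and 78.5, 139 and 123 in Dox islets, groups that did not overlap but did not pass (2.00, adjusted p = 0.0721). Adam32, a reproductive ADAM that lies 807 bases from Adam9 on the same strand, had 201, 89.5 and 133 in No Dox islets and 24.7, 21.4 and 43.9 in Dox islets (-2.19, adjusted p = 0.0616). Adam8 (48.3 ± 24 in No Dox islets and 93.5 ± 32.4 in Dox islets), Adam33 (49.2 ± 21.4 in No Dox islets and 42.3 ± 19.1 in Dox islets) and Adamts14 (13.2 ± 15 in No Dox islets and 44.6 ± 16.2 in Dox islets) did not pass in islets at that limit, with adjusted p of 0.411, 0.911 and 0.217. Between the fractions Adam11 (1.38, adjusted p = 0.0197) was higher and Adamts17 (-2.12, adjusted p = 0.0216) lower in macrophages, where 59.1% of 13726 genes passed.

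Against Dox islets the lower limit added members that were lower in both fractions. They were Adam5, Adamts8, Adamts16, Adamtsl1, Adamtsl3 and Adamtsl5, with log2 differences of -4.90, -4.97, -4.37, -4.40, -5.77 and -3.69 in macrophages and of -3.86, -3.36, -2.64, -3.87, -4.91 and -2.64 in endothelial cells. These members reached the limit in every Dox islet library and seldom in the fractions, so that the filter itself favoured a lower value there. Passing genes at that limit were 52.7% and 33.1% of all tested. Adamts3 was lower in macrophages (-2.09), and Adam33 and Adamts14 were lower in endothelial cells (-2.94 and -1.62). Adam28, a lymphocyte ADAM, exceeded 15.1 only in Dox replicate 3, at 55.8, and Adamts20 never exceeded 38.9. Adamts13 was highest in macrophages, at 9.96, 10.1 and 20.4, and at the floor in all 3 endothelial libraries.

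For the reproductive ADAMs the islets gave isolated values. Adam5, for instance, had 39.99, 30.6 and 282 in No Dox islets and 24.2, 198 and 49.3 in Dox islets, so that 1 library stood high in each islet group. Adam7 reached 118 in No Dox replicate 3. Adam4, which overlaps Cox16 and Synj2bp on the same strand, had 41.5 to 142 in the 12 libraries. Adam1a overlaps Mapkapk5 on the same strand and shares an identical motif with Adam1b, and the pairs Adam1a and Adam1b, Adam6a and Adam6b, and Adam26a and Adam26b share long identical stretches. Of the windows of 50 bases in the coding sequence of Adam1a, 45.8% occurred in that of Adam1b, and the shares were 32.7% for Adam6a in Adam6b and 30.6% for Adam26a in Adam26b. The assignment of reads from such stretches is not stated, and the low values of these 6 genes are therefore uncertain.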

How the data were processed

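RNA from whole islets or sorted islet cells was amplified with a NuGEN Ovation kit, made into libraries and sequenced on an Illumina HiSeq2500, per the labels' protocols. The authors deposited 1 table of normalized expression signal (linear, floor of 1), whose normalization method, counting program and use of strand the sources used here do not give. The submitters' processing notes name TopHat2 2.0 and mm9. Whole reads could not be recovered from the deposited signal values, so that no count model was used and depth per gene is unknown. Gene identifiers were used to restore 25 symbols that the table holds as dates, and for 76 symbols with several entries the one with the highest mean was kept, which left 22711 genes.

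Values were analysed as log2 of (signal + 1) with limma 3.58.1 in R 4.3.3, as 1 linear model for the 6 libraries of each comparison, with a variance trend and Benjamini-Hochberg adjustment over all genes tested (two-sided, threshold 0.05). The procedure was also run on simulated data with independent noise for each gene and library. That noise lacks the GC-linked deviations that genes share within these libraries, so that no conclusion for these data is drawn from it. Genes were tested if they reached 182.37, the 40th percentile of values above the floor, in at least 3 of the 6 libraries. All 56 members had the same coordinates in GENCODE M1, from which exon lengths, coding sequences and neighbours were read. Alternatives were no filter, a limit of 15.48 (the 40th percentile of all values, added after seeing the data), a pseudocount of 16, quantile normalization, median ratio rescaling, 1 model of all 12 libraries, the replicate number as a block, removal of each library's GC trend (added after seeing the data), leaving out each library, and leaving out both GC-skewed islet libraries. Arms of 2 libraries left by these were fitted with the variance pooled over both groups.

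The text names every member past the threshold, the 8 largest differences, 16 members by role and, of each list, the 4 largest differences past the threshold with Timp3, Reck, Rhbdf2, Tnf, Notch1, Vcan and Vwf. Outside this rule, Cdh1 and Il6ra in islets, Timp2 and Notch2 between the fractions, Thbs1 in endothelial cells against Dox islets, the markers Rgs5, Cldn5, Cd14 and Mertk, and members below the filter were named after their values were seen. The members and lists were chosen with earlier results of these data known. Macrophage and endothelial libraries with the same number deviated together from their groups (correlations of 0.27, 0.54 and 0.5 over 10051 genes), so that the numbers pair these libraries on the evidence of the data and not of the labels. The differences and p-values printed are from the fit without the block. With the block the same 19 members were called, and 41 partners and substrates in place of 36.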

Additional observations from a re-analysis of the deposited data

How the results depend on the processing

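Of 2150 recomputed differences of named genes, 1952 kept their direction and their side of the threshold, 137 lost the threshold, 39 gained it and 22 changed sign. In Dox islets against No Dox islets, the count of 10 members was 1 with no filter, 14 after GC removal, 12 with quantile normalization, 12 in 1 model of all 12 libraries, and 0 to 10 when single libraries were left out, and the 17 partners and substrates became 3 with no filter, 11 with the replicate block, 9 without No Dox replicate 2 and Dox replicate 1, and 1 to 12 when single libraries were left out. Over all genes, the islet fit called 866 of 10232, against 97 of 22711 with no filter. GC removal called 1595 of 10232, quantile normalization 1040, the replicate block 630, and the model of all 12 libraries 1598 of 11608. With the replicate block the members called numbered 10 in islets (9 of them shared, with Adamts1 gained and Adam22 lost), 19 between the fractions, 19 in macrophages against Dox islets and 17 in endothelial cells against Dox islets. In the last comparison the 14 members became 23 at the lower filter limit (9 higher and 14 lower) and 9 to 17 when single libraries were left out. The islet groups share only a number: same-numbered libraries deviated with correlations of -0.24, -0.68 and 0.22, and 0 of 6 were closest to the library of their number. Quantile normalization, median ratio rescaling and GC removal moved the median of all genes from 0.11 to -0.037, -0.016 and -0.021 in islets, from -0.14 to -0.09, -0.0043 and -0.015 between the fractions, from -0.12 to 0.075, -0.0075 and -0.054 in macrophages against Dox islets, and from 0.079 to 0.23, 0.034 and -0.047 in endothelial cells against Dox islets. The sign changes concerned 11 results, of which 0 had passed the threshold. For most alternatives this too was fixed in advance and adds no support. The filter, the block and the model of all 12 libraries leave a difference unchanged. Members called in any comparison had groups that did not overlap, so that leaving out libraries could not reverse them. Leaving out single libraries gave, in islets, -1.07 to 0.31 for Adamtsl4, and between the fractions -0.18 to 0.11 for Adamts6. In macrophages against Dox islets it gave -0.14 to 0.67 for Adam15, -0.41 to 0.038 for Adam22, -0.84 to 0.0076 for Adamts10 and -0.97 to 0.027 for Notch1. In endothelial cells against Dox islets it gave -0.12 to 0.42 for Adam17, -0.34 to 0.19 for Adamts4 and -0.52 to 0.074 for Vcan. Adamts15 was at -0.11 in islets without both GC-skewed libraries. Between the fractions Adamts6 was at 0.033 with quantile-normalized values, 0.13 with median ratio rescaling and 0.22 after GC removal, which also gave -0.33 for Adam15, 0.19 for Adam22 and 0.21 for Adam10 in macrophages against Dox islets. In that comparison GC removal also brought past the threshold Adamts10 (-1.05), Notch1 (-1.16), Adam9 (0.70) and Adamts6 (0.81). The cause was not tested. Read depth is unknown, so that a gene at the floor cannot be told from one read too rarely.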
